A study of Canis lupus familiaris with 28 samples.

Results

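A set of 48 transcripts, of 29884 counted, had lower read counts in confluent than in sub-confluent dog cells and higher counts at confluence when both p190 proteins were targeted by shRNAs. The transcripts were selected on deposited RNA sequencing counts by 4 limits, each a difference between group means expressed as log2(mean CPM + 1), where CPM is the count scaled to a common total of transcript counts in each library. Confluent wild-type cells had to lie at least 1 below sub-confluent wild-type cells. Confluent cells with both shRNAs had to lie at least 1 above confluent wild-type cells in experiment 1 and at least 0.7 above them in experiment 2. The groups with 1 shRNA had to lie within 0.7 of each other at confluence. The first limit was met by 298 transcripts, the first 2 by 154, the first 3 by 80 and all 4 by 48.

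All samples were TR-T10, a dog line with a tetracycline repressor, and carried the genotypes wild type, p190A shRNA, p190B shRNA or both. Experiment 1 crossed these 4 genotypes with 2 densities, confluent and sub-confluent, with 2 libraries in each of 8 groups. Experiment 2 was done at confluence, in 3 samples each of wild-type cells, cells with both shRNAs, and cells with both shRNAs with YAP carrying the 5SA and S94A changes, and in 3 samples labelled YAP5SA. The shRNAs were induced with 4 µg/ml doxycycline for 3 days, and the cells were then plated again at the stated density for 3 to 5 days. The labels are silent on doxycycline in wild-type cells. Hygromycin was used to select the p190A line and puromycin the p190B line, and the line with both was made from the p190B line, so it went through both selections. YAP constructs were brought in by virus and selected with G418. The labels of the YAP5SA samples conflict, since one field names YAP expression alone and another names both shRNAs as well, and they are called the libraries labelled YAP5SA. Among these, the tables of replicates 1 and 2 were the same in all rows. They entered as 1 sample, giving n = 2 for that group and 27 libraries in all. Nothing in the labels says that replicates were separate cultures, so p-values measure only how far these samples scatter, and that scatter may be technical.

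Epithelial cells that touch their neighbours on all sides slow their growth, a behaviour known as contact inhibition. p190A (ARHGAP35) and p190B (ARHGAP5) are related GTPase-activating proteins with known effects on the actin cytoskeleton. Actin tension and cell density are known inputs to the Hippo pathway, whose LATS kinases phosphorylate the coactivator YAP and keep it out of the nucleus. In the nucleus YAP acts mainly through TEAD transcription factors. The 5SA form of YAP lacks the serines that LATS kinases modify, and the S94A change removes binding to TEAD.

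In experiment 1 the libraries had totals of 10706716 to 17215544 transcript counts, and in experiment 2 totals of 12316084 to 16786677. The deposited identifiers matched none of the reference genes by name, so the transcripts are not named, the knockdown of the targeted genes was not read, and no sequence or pathway list is given. The shRNA labels are therefore taken as given, and so is the identity of the line, for which no cell type markers were read. Replicates of 11 groups lay close together, with a median SD of log2(CPM + 1) over the 48 transcripts of 0.0487 to 0.194. The sub-confluent p190A group stood apart, with a median SD of 0.427 for the 48 and 0.173 for all transcripts. Its replicate 2 had a set median of 5.66 and its replicate 1 one of 4.93. The share of alignments to several places was also higher in replicate 2 of this group, at 28.9%, than in replicate 1, at 26.5%, and its part in the results was not tested. Medians that use this group, and most single-transcript results, are given with and without its libraries. Counts of overlaps and of 2-fold changes are not.

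The 48 transcripts ranged from 2.88 to 1433 CPM in their mean over 27 libraries, with a median of 31.8 CPM, beside 28.2 CPM over the 11904 transcripts with a mean of at least 1 CPM. The lowest single count in any library was 3, and 46 of the 48 had more than 10 counts in every library. All 48 passed the filter on low counts in both experiments. The 3 most abundant held 58.7% of the summed mean CPM, so medians over transcripts are used below rather than sums. CPM is not scaled for transcript length, and the order of abundance here is one of read counts.

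The values that chose the set are a description, with no test. In wild-type cells the contact difference had a median of -1.21 on the log2(CPM + 1) scale, with a range of -2.12 to -1.06. With both shRNAs at confluence the difference from wild type had a median of 1.61 and a range of 1.00 to 2.92 in experiment 1. In experiment 2 it had a median of 1.13 and a range of 0.70 to 3.86, and was at least 1 in 33 of 48. The limits cut through a continuous range. The transcript nearest the contact limit lay at -1.056 inside it and at -0.9842 outside it, and 162 transcripts met all but the contact limit. The corresponding values were 1.005 and 0.9907 for the double knockdown in experiment 1 (15 transcripts failed this limit alone), 0.7046 and 0.6858 in experiment 2 (49) and 0.6902 and 0.7046 for the difference between the single knockdowns (32).

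In wild-type cells the median of the 48 was 3.94 and 3.87 in the confluent libraries and 5.16 in both sub-confluent ones. The confluent libraries with the p190A shRNA had 4.07 and 4.29, and those with the p190B shRNA 4.08 and 4.09. With both shRNAs the confluent libraries had 5.54 and 5.45. At confluence the libraries with 1 shRNA therefore lay more than 1 below those with both, and close above wild type. The confluent libraries of wild type and of both shRNAs chose the set, so the gap to both shRNAs is partly built in. At sub-confluence the p190A libraries had 4.93 and 5.66, the p190B libraries 5.07 and 5.22 and those with both shRNAs 5.88 and 5.96. In experiment 2 the median was 4.35, 4.39 and 4.38 in wild type and 5.65, 5.59 and 5.54 with both shRNAs. It was 4.89, 4.83 and 4.88 with S94A added and 4.80 and 4.85 in the libraries labelled YAP5SA. The last 2 groups lay between wild type and both shRNAs and next to each other. The choice of the set placed both shRNAs above wild type in this experiment, so a place between them is partly built in.

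**Figure D1:**
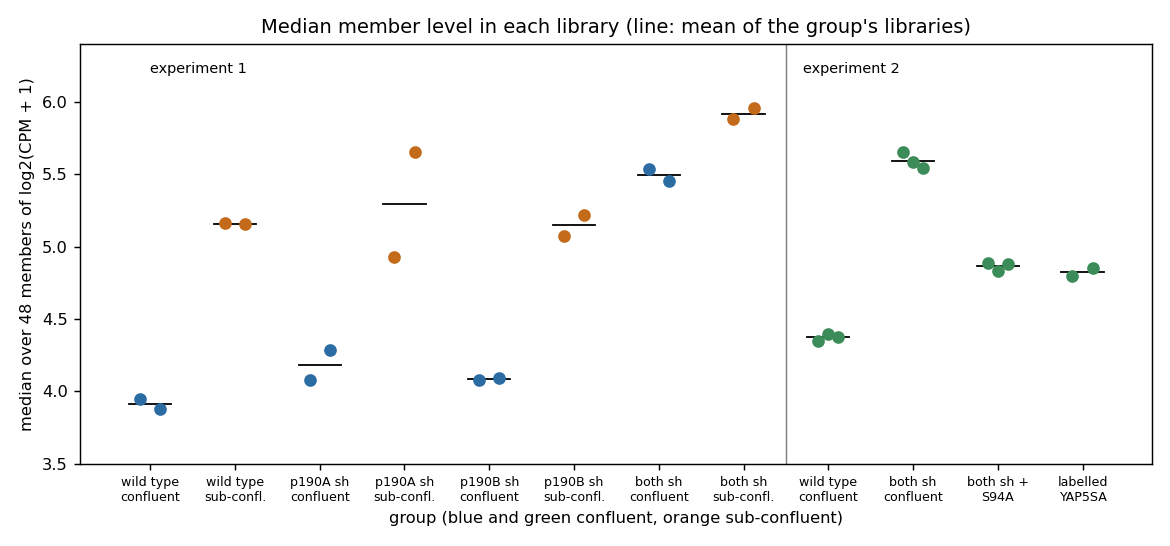
Median over the 48 transcripts of log2(CPM + 1) in each library, with 1 point per library, a line for the mean of the group, experiment 1 left of the grey line and experiment 2 right of it. Confluent wild-type libraries of experiment 1 lie at 3.94 and 3.87 and confluent libraries with both shRNAs at 5.54 and 5.45, and the sub-confluent p190A libraries lie apart at 4.93 and 5.66.

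**Figure D2:**
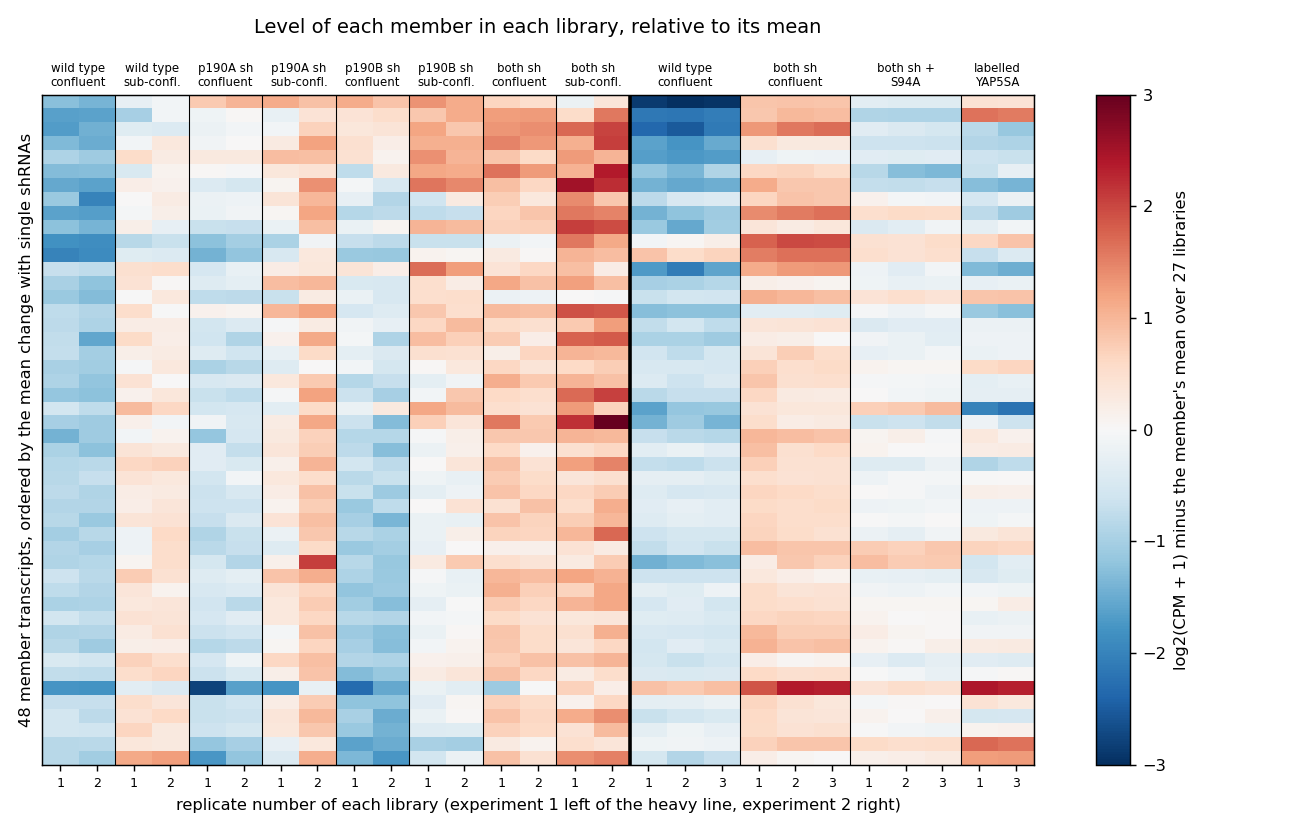
Level of each of the 48 transcripts (rows) in each of the 27 libraries (columns), as log2(CPM + 1) minus the transcript's own mean over libraries, with rows ordered by the mean change with single shRNAs and the heavy line between experiments. Rows at the top are raised with 1 shRNA at confluence, and in most rows below them the confluent columns with 1 shRNA lie near wild type and those with both lie higher. The confluent levels of wild type and of both shRNAs were used to choose the set.

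In experiment 1 alignments to several places took a larger share at sub-confluence than at confluence in each genotype, as the level of the set did. At confluence, share and level were both highest with both shRNAs. They did not move together throughout, since confluent libraries with 1 shRNA had shares near or below wild type and higher set medians. Alignments to several places took 26.1% and 26.6% of counted entries in the confluent and 28.6% and 28.9% in the sub-confluent wild-type libraries. Shares in the confluent libraries were 26.3% and 25.7% with the p190A shRNA, 25.2% and 25.6% with the p190B shRNA and 27.9% and 28.4% with both. In the sub-confluent libraries they were 26.7% and 27.4% with the p190B shRNA and 28.9% and 30.7% with both. In experiment 2 they were 25.5%, 25.9% and 25.8% in wild type and 27.5%, 27.4% and 27.2% with both shRNAs. They were 25.6%, 25.3% and 25.4% with S94A and 24.7% and 24.4% in the libraries labelled YAP5SA. The part of this share in the results was not tested. In bulk samples, a transcript in fewer cells and less of it per cell cannot be told apart.

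The first question was whether the set still responded to contact when 1 p190 protein was targeted. The sub-confluent libraries of the single knockdowns had no part in the choice of the set, and the confluent ones entered only through their difference from each other. With the p190A shRNA, 37 of the 48 transcripts fell at confluence and none rose (edgeR quasi-likelihood test, adjusted p under 0.05), which is 77.1% of the set beside 6.93% of all 12845 transcripts tested. The median log2 fold change was -1.19 in the set and -0.01 over all transcripts, with a range of -2.94 to -0.14 and all 48 estimates below 0. At least 2-fold falls were found for 28. With the p190B shRNA, 36 fell and none rose, or 75.0% beside 5.92% of all transcripts tested. The median was -1.01 against 0.02 over all, the range -2.54 to -0.11, and 24 fell at least 2-fold. The share of all transcripts that fell at least 2-fold was not counted in either line. None of the 48 was higher at an unadjusted p under 0.05 in either line, and DESeq2 gave 41 and 40 lower and 0 higher. In either direction DESeq2 called 1759 of all 11789 transcripts tested in p190A cells and 1493 of 12163 in p190B cells.

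Falls were called in both single knockdowns for 31 transcripts, with the p190A shRNA alone for 6, with the p190B shRNA alone for 5 and in neither for 6. The same overlap was not counted over all transcripts, so no conclusion about the set is drawn from it. The difference between the 2 responses was not tested. The transcripts whose fall was not called had estimates below 0 too, and the median standard error among them was 0.31 in p190A cells and 0.28 in p190B cells. The counts of falls in each line moved with single libraries, most calls being lost in some fits, and so did the number called over all transcripts. Each such fit left 1 library in a group, so effect sizes are given here. No rise was called in any of them. The third most abundant transcript had a p190A estimate of 0.12 without sub-confluent p190A replicate 2. For p190A the median log2 fold change was -1.14 and -1.18 without confluent p190A replicate 1 and 2. It was -1.47 and -0.74 without sub-confluent p190A replicate 1 and 2. In a fit of the 2 compared p190A groups alone, 15 of the set fell. That fit called 149 in either direction among all 12052 transcripts tested. For p190B the median was -1.10 and -0.92 without confluent p190B replicate 1 and 2, and -1.05 and -0.999 without sub-confluent replicate 1 and 2. Same-numbered libraries of 1 density deviated together over all transcripts (correlation 0.189 to 0.619), so the single knockdown libraries were not wholly separate from the wild-type libraries that chose the set.

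With both shRNAs the contact difference, whose confluent libraries chose the set, is given without a test. Its median was -0.22 on the log2(CPM + 1) scale and its range -1.60 to 0.44. The difference was below 0 for 40 transcripts, within 0.5 of 0 for 29 and at or below -1 for 6. The median of the same measure was -0.97 in p190B cells and -1.07 in p190A cells, where it was -1.35 without sub-confluent p190A replicate 1 and -0.66 without replicate 2. It was 0.01 over all transcripts with a mean of at least 1 CPM in cells with both shRNAs. Confluent cells with both shRNAs lay a median of 0.35 above sub-confluent wild-type cells, and 42 transcripts lay above them. The 6 transcripts that still differed by 1 or more between densities thus sat beside 29 with a difference of less than 0.5.

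**Figure D3:**
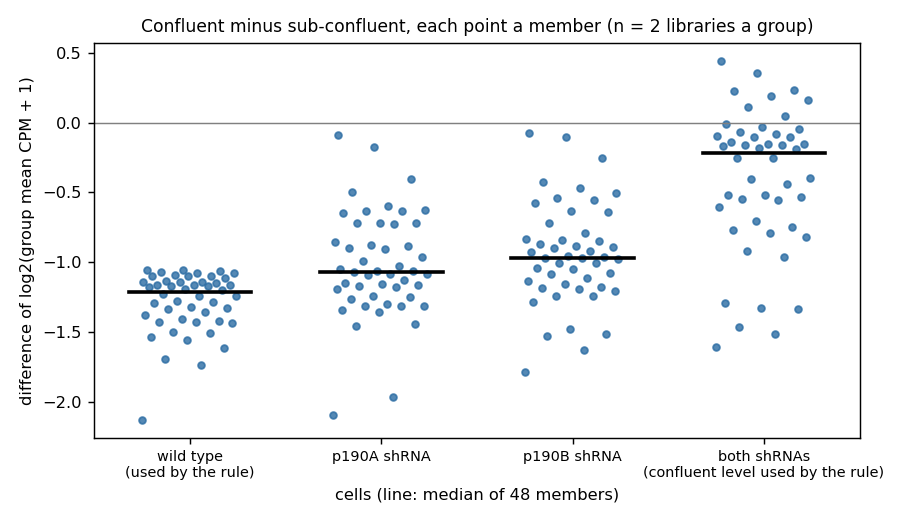
Confluent minus sub-confluent difference of log2(group mean CPM + 1) for the 48 transcripts in each genotype of experiment 1 (n = 2 libraries a group), with a line at the median. Medians are -1.21 in wild type, -1.07 with the p190A shRNA (-1.35 or -0.66 without sub-confluent p190A replicate 1 or 2), -0.97 with the p190B shRNA and -0.22 with both, and the wild-type values and the confluent level with both shRNAs were used to choose the set.

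The effect of 1 shRNA at confluence varied among the transcripts, and is described without a test because confluent wild-type cells chose the set. With the p190A shRNA the median difference from wild type was 0.38, with a range of -0.50 to 2.23, and 9 transcripts lay at least 1 above wild type. With the p190B shRNA the median was 0.23, with a range of -0.73 to 2.31, and 10 lay at least 1 above. Above wild type were 44 transcripts with the p190A shRNA and 29 with the p190B shRNA, and 19 lay below it with the latter. Over all transcripts with a mean of at least 1 CPM these medians were -0.02 and -0.05. Both shRNAs together lay above the p190A shRNA for 47 transcripts (median 1.28, at least 1 for 33) and above the p190B shRNA for 47 (median 1.41, at least 1 for 35). Over all transcripts with a mean of at least 1 CPM these 2 medians were 0.005 and 0.007. The confluent libraries with both shRNAs also chose the set, so a rise over each single shRNA is partly built in and is no separate result.

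A group of 7 transcripts, picked after their values were seen, lay at least 1 above wild type with either shRNA at confluence, and it includes the 3 most abundant. Their medians above wild type were 1.36 with the p190A shRNA and 1.76 with the p190B shRNA. Their contact differences had medians of -0.50 in p190A and -0.72 in p190B cells, the former -0.62 and -0.32 without sub-confluent p190A replicate 1 and 2. Another 20 lay within 0.5 of wild type with either shRNA, and their contact differences had medians of -1.12 and -0.97, the former -1.44 and -0.73 without the same libraries. The confluent levels that picked the 7 and the 20 also enter these contact differences. A smaller fall in the 7 is therefore partly built in by the pick. With both shRNAs these 20 lay a median of 1.30 above the p190A and 1.61 above the p190B groups at confluence. The choice of the set and of the 20 already placed each of them higher with both shRNAs, so this is no separate result. A further 5 lay at least 1 above wild type with 1 of the shRNAs. Most transcripts, 36 of 48, were at least 1 above wild type with neither shRNA alone.

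The second question was whether both shRNAs raised the set above either alone when cells were not confluent, in libraries that had no part in the choice. Against the p190A shRNA, 18 of the 48 transcripts were higher with both and 1 was lower (edgeR quasi-likelihood test, adjusted p under 0.05). These are 37.5% and 2.08% of the set, beside 8.65% higher and 11.8% lower among all transcripts tested. The median log2 fold change was 0.43, with 41 estimates above 0, and 8 of the rises were at least 2-fold. Against the p190B shRNA, 28 were higher and 2 lower, or 58.3% and 4.17%, beside 15.3% and 16.3% of all transcripts. The median was 0.84, with 42 estimates above 0, and 18 rose and 1 fell at least 2-fold. The medians over all transcripts were 0.00 in both comparisons. Higher than both single knockdowns were 11, than the p190A shRNA alone 7, than the p190B shRNA alone 17 and than neither 13. The 2 comparisons share the libraries with both shRNAs. Neither this overlap nor the 2-fold changes were counted over all transcripts or without single sub-confluent p190A libraries, so no conclusion about the set is drawn from them.

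The comparison with p190A cells moved with its libraries. The median log2 fold change was 0.24 without sub-confluent p190A replicate 1 and 0.77 without replicate 2. It was 0.58 and 0.40 without replicate 1 and 2 of the sub-confluent cells with both shRNAs. The number called moved in these fits, in the set and over all transcripts. When the fit held the 2 compared groups alone, none of the 48 was called, although 18 were higher and 1 lower at an unadjusted p under 0.05. That fit called 217 of all 12096 transcripts tested, where the main fit called 2621 of 12845. The line with both shRNAs was made from the p190B line, which makes that line its nearest relative. Against sub-confluent wild type, sub-confluent cells with both shRNAs lay a median of 0.71 above on the log2(CPM + 1) scale (44 of 48 above). By the same measure the p190B group lay at -0.01. The p190A group lay 0.24 above, and at 0.48 without its replicate 1 but at -0.12 without its replicate 2, so its direction turned with 1 library. These 3 differences share the wild-type libraries that chose the set and carry no test.

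Sub-confluent p190A and p190B cells were compared directly. In p190A cells 15 transcripts were higher and 4 lower than in p190B cells (edgeR quasi-likelihood test, adjusted p under 0.05), or 31.2% and 8.33%, beside 11% and 10.3% of all transcripts tested. The median log2 fold change was 0.38 against 0.02 over all. This comparison turned with 1 library. The median was -0.15 without sub-confluent p190A replicate 2 and 0.66 without replicate 1. Fewer of the set were called without either sub-confluent p190B library. No direction for the set is given from this comparison.

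Experiment 2 added YAP constructs at confluence. Differences from wild type or from both shRNAs alone share libraries that chose the set and are given without a test. With S94A added to both shRNAs, the transcripts lay a median of 0.63 below both shRNAs alone (-0.63 on the log2(CPM + 1) scale, range -1.97 to 0.45), and 44 of 48 lay below. In the libraries labelled YAP5SA the median was -0.65, with a range of -2.62 to 1.17, and 43 lay below. Both groups lay a median of 0.56 above wild type, with 45 of 48 above it in each. The S94A group fell between wild type and both shRNAs for 41 transcripts, above the latter for 4 and below wild type for 3. The libraries labelled YAP5SA did so for 40, 5 and 3. The set was chosen for low wild-type levels and high levels with both shRNAs here. A place between them is thus partly built in, and no reversal by the constructs is read from it. Each YAP line also went through viral transfer and G418, which the 2 comparison groups did not by their labels, and these differences cannot be told apart from the construct.

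**Figure D4:**
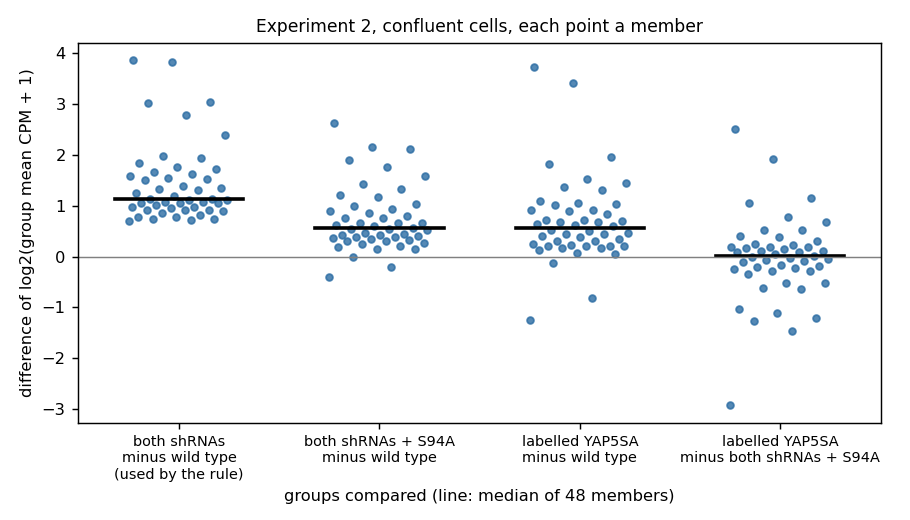
Differences of log2(group mean CPM + 1) for the 48 transcripts among the confluent groups of experiment 2 (n = 3 libraries a group, 2 for YAP5SA), with a line at the median. The medians above wild type are 1.13 with both shRNAs, which was used to choose the set, and 0.56 in both the S94A and the YAP5SA groups, which differ from each other transcript by transcript around a median of 0.00.

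The libraries labelled YAP5SA and those with S94A had no part in the choice of the set, and were tested against each other. Of the 48 transcripts, 15 were higher and 18 lower in the libraries labelled YAP5SA (edgeR quasi-likelihood test, adjusted p under 0.05), or 31.2% and 37.5%, beside 27.8% higher and 26.5% lower among all 13061 transcripts tested. The share of the set that was higher lay near that of all transcripts. The median log2 fold change was -0.00 and the median over all transcripts 0.00, so the set did not shift to 1 side. Single transcripts ranged from -3.18 to 2.50, with a median standard error of 0.08, and 5 rose and 6 fell by 2-fold or more. Changes of 2-fold or more were not counted over all transcripts. The labels leave unclear whether these groups differ in YAP form alone or in the shRNAs too. Leaving out any library of the 2 groups gave 27 to 31 calls.

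The most abundant transcripts differed in pattern, and the 3 highest by mean CPM are described by place, picked after their values were seen. The most abundant had 638 and 580 CPM in confluent and 1789 and 1442 CPM in sub-confluent wild-type cells. It had 1490 and 1474 CPM with the p190A and 1654 and 1300.3 CPM with the p190B shRNA at confluence, and 2175 and 1806 CPM with both. With 1 shRNA at confluence it thus had over 2 times its wild-type level, and no confluent library of experiment 1 with a shRNA overlapped wild type. It fell with contact in p190A cells, by 0.67 on the log2 scale (SE 0.17, edgeR adjusted p = 2.5e-02), and in p190B cells, by 0.94 (SE 0.17, adjusted p = 4.9e-03). The p190A call was lost without sub-confluent p190A replicate 2 (-0.67, adjusted p = 0.14) or without either confluent p190A library, and the p190B call without confluent p190B replicate 2 or sub-confluent replicate 1. In experiment 2 it had 960 CPM, 940 CPM and 957 CPM with S94A and 793 CPM and 764 CPM in the libraries labelled YAP5SA.

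The second most abundant went against the set in sub-confluent cells when both shRNAs were compared with 1. At confluence it had 244 and 221 CPM in wild type, 997 and 1188 CPM with the p190A shRNA and 1260 and 1054 CPM with the p190B shRNA. With both it had 905 and 825 CPM, below the libraries with 1 shRNA. Its sub-confluent levels were 1260 and 1068 CPM with the p190A shRNA, 1496 and 1264 CPM with the p190B shRNA and 519 and 753 CPM with both. Sub-confluent wild-type cells had 493 and 548 CPM, so the level with both shRNAs was not below wild type on average. At sub-confluence it was lower with both than with the p190A shRNA, at a log2 fold change of -0.91 (SE 0.18, edgeR adjusted p = 3.0e-03), and than with the p190B shRNA, at -1.15 (SE 0.18, adjusted p = 3.8e-04). The former was -0.79 and -1.01 without sub-confluent p190A replicate 1 and 2, both called. Its contact estimates of -0.14 and -0.28 in p190A and p190B cells were not called. In experiment 2 it had 78.9, 66.7 and 74.8 CPM in wild type and 1041, 1061 and 1041 CPM with both shRNAs. It had 465, 451 and 450 CPM with S94A and 787 and 780 CPM in the libraries labelled YAP5SA.

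The third most abundant had the highest log2 fold change of the set between the YAP groups, 2.50 (SE 0.04, edgeR adjusted p = 5.5e-46). It had 110, 107 and 116 CPM in wild-type cells of experiment 2 and 856, 957 and 930 CPM with both shRNAs. With S94A it had 261, 256 and 258 CPM, and the libraries labelled YAP5SA had 1505 and 1440 CPM. The libraries labelled YAP5SA lay above all others of that experiment, and none of these groups overlapped.

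Of 46 transcripts with a mean of at least 5 CPM, 3 are given by identifier. ENSCAFT00000013454 had the largest smallest change over the 3 limits that compare with wild type, 1.73. It had 3.27 and 3.06 CPM in confluent and 13.2 and 12.5 CPM in sub-confluent wild-type cells. At confluence it had 8.22 and 7.52 CPM with the p190A shRNA, 10.8 and 7.75 CPM with the p190B shRNA and 22.0 and 18.0 CPM with both. Its confluent levels thus stood in steps from wild type through 1 shRNA to both, with the groups with 1 shRNA overlapping each other and no other group. The sub-confluent levels were 12.1 and 30.8 CPM with the p190A shRNA, 36.2 and 32.5 CPM with the p190B shRNA and 69.5 and 56.1 CPM with both. In experiment 2 it had 3.57, 3.26 and 3.43 CPM in wild type and 25.6, 20.4 and 20.4 CPM with both shRNAs. It had 6.48, 6.32 and 6.66 CPM with S94A and 4.02 and 3.64 CPM in the libraries labelled YAP5SA, both far below both shRNAs alone.

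ENSCAFT00000013454 fell with contact in p190B cells, with a log2 fold change of -1.91 (SE 0.32, edgeR adjusted p = 4.0e-03), and in p190A cells, with -1.497 (SE 0.33, adjusted p = 1.5e-02). The p190A call was lost without either confluent p190A library or without sub-confluent p190A replicate 2 (-0.65), and the p190B call without confluent p190B replicate 2. In sub-confluent cells it was higher with both shRNAs than with the p190A shRNA, by 1.498 (SE 0.30, edgeR adjusted p = 3.4e-03). That estimate was 0.97 and 2.34 without sub-confluent p190A replicate 1 and 2. The rise over the p190B shRNA, 0.82 (SE 0.29, edgeR adjusted p = 4.6e-02), was lost when any 1 of the 4 compared libraries was left out. Adding replicate number within each density to the fit lost that call too (edgeR adjusted p = 0.068). It was lower in the libraries labelled YAP5SA than with S94A, with -0.77 (SE 0.17, adjusted p = 8.1e-05).

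ENSCAFT00000002889, second by the same measure with 1.69, responded to the shRNAs unequally. It had 4.76 and 4.56 CPM in confluent and 15.8 and 18.7 CPM in sub-confluent wild-type cells. With the p190B shRNA it had 8.59 and 9.08 CPM at confluence and 9.38 and 9.72 CPM at sub-confluence, with no contact fall called (-0.14, SE 0.29, edgeR adjusted p = 0.79). With the p190A shRNA it had 14.2 and 15.2 CPM at confluence and 17.1 and 38.9 CPM at sub-confluence, and fell by 0.98 (SE 0.27, adjusted p = 3.4e-02). That call was lost without either confluent p190A library or without sub-confluent p190A replicate 2, where the estimate was -0.26. Both shRNAs gave 26.5 and 30.1 CPM at confluence and 51.6 and 47.9 CPM at sub-confluence. At sub-confluence this was above the p190B shRNA, by 2.34 (SE 0.27, adjusted p = 5.2e-05), and above the p190A shRNA, by 0.78 (SE 0.25, adjusted p = 4.2e-02). The latter call was lost without sub-confluent p190A replicate 1, where the rise was 0.30, or without either sub-confluent library with both shRNAs.

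In experiment 2 ENSCAFT00000002889 had 5.48, 6.60 and 7.38 CPM in wild type and 45.7, 50.8 and 54.0 CPM with both shRNAs. It had 23.7, 24.9 and 24.5 CPM with S94A and 9.09 and 7.40 CPM in the libraries labelled YAP5SA. The S94A libraries lay between wild type and both shRNAs, and the libraries labelled YAP5SA lay next to wild type. The libraries labelled YAP5SA were lower than those with S94A by a log2 fold change of -1.59 (SE 0.11, edgeR adjusted p = 7.6e-19).

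ENSCAFT00000009543 was the lowest of the set in the libraries labelled YAP5SA relative to S94A, with a log2 fold change of -3.18 (SE 0.11, edgeR adjusted p = 2.5e-30). It had 40.1, 42.1 and 46.9 CPM with S94A, above the 32.5, 30.4 and 30.8 CPM with both shRNAs alone. Wild type had 7.20, 10.1 and 10.3 CPM and the libraries labelled YAP5SA 5.23 and 4.40 CPM, below all others. In experiment 1 it had 16.2 and 13.7 CPM in confluent and 46.8 and 37.3 CPM in sub-confluent wild-type cells. The confluent levels were 16.05 and 16.7 CPM with the p190A shRNA, 20.9 and 29.7 CPM with the p190B shRNA and 34.4 and 32.8 CPM with both. With the p190A shRNA it overlapped wild type at confluence.

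At sub-confluence ENSCAFT00000009543 had 19.1 and 36.2 CPM with the p190A shRNA, 54.4 and 46.8 CPM with the p190B shRNA and 59.8 and 39.2 CPM with both. Its contact fall in p190B cells, -1.03 (SE 0.26, edgeR adjusted p = 2.6e-02), was lost without any 1 of the 4 compared libraries, and the estimate of -0.81 in p190A cells was not called (SE 0.27, adjusted p = 6.7e-02). Both shRNAs gave a higher level than the p190A shRNA at sub-confluence, by 0.78 (SE 0.26, edgeR adjusted p = 4.6e-02). That call was lost without sub-confluent p190A replicate 1 (0.39) or replicate 1 with both shRNAs (0.48). It was also lost when replicate number was added to the fit, over experiment 1 or within each density (edgeR adjusted p = 0.051 and 0.10). Against the p190B shRNA the estimate was -0.08 (SE 0.25, adjusted p = 0.84).

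**Figure D5:**
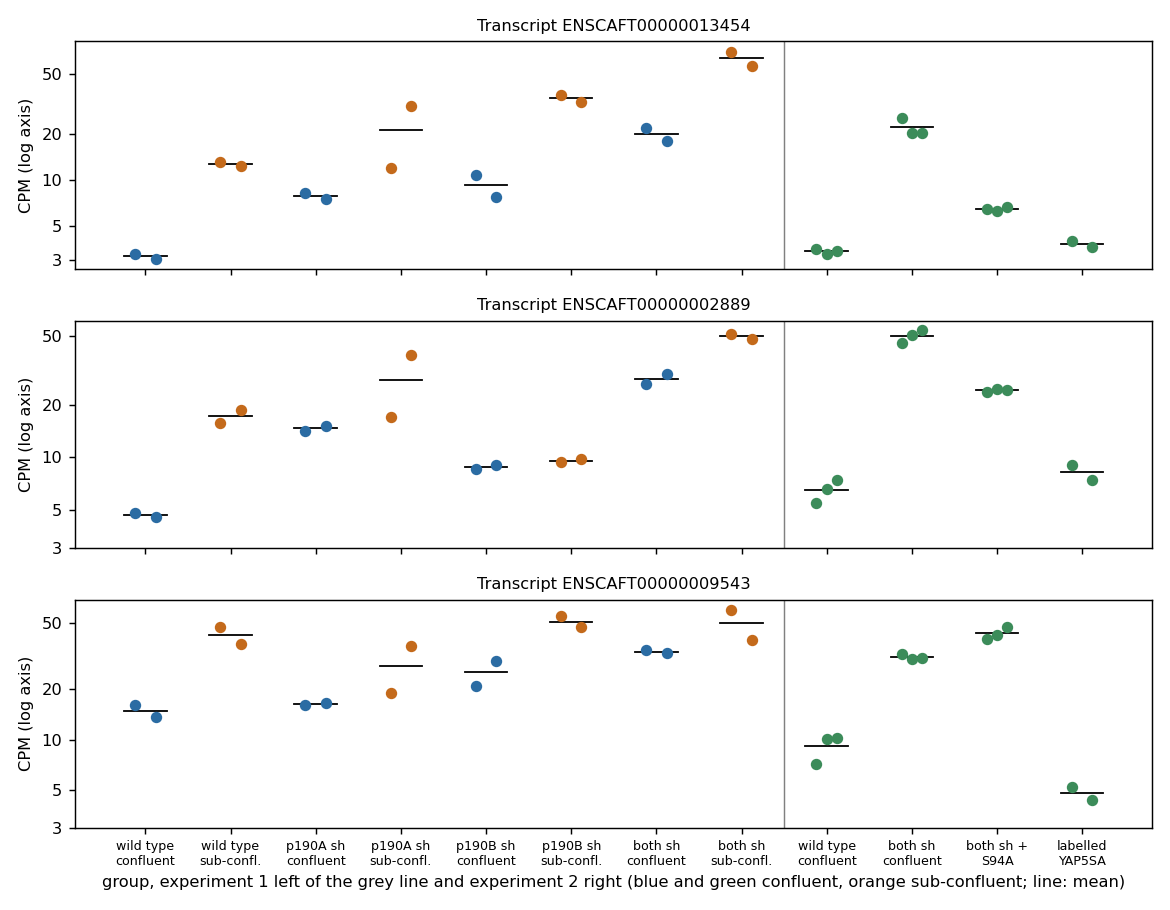
CPM of the 3 transcripts given by identifier in each library, on a log axis, with 1 point per library and a line at the group mean. ENSCAFT00000013454 and ENSCAFT00000002889 are nearer to wild type than to both shRNAs in the libraries labelled YAP5SA, while ENSCAFT00000009543 has 40.1, 42.1 and 46.9 CPM with S94A and 5.23 and 4.40 CPM in the libraries labelled YAP5SA.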

How the data were processed

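Polyadenylated RNA of 28 samples was sequenced as single reads after TruSeq library preparation, per the labels' protocols. Tools named without a role in the submitters' processing notes are HTSeq 0.6.0, DESeq2 1.4.5 and STAR 2.3.1n, with the build CanFam3.1. The aligner settings and strand use were not given in the sources used here. The authors deposited whole-number counts of reads per Ensembl dog transcript, with 5 summary rows that name none. Of uniquely aligned reads the rows for no feature and ambiguous held 21.2% to 23.8% and 20.3% to 23.1%, so overlapping transcripts are measured from part of their reads. Alignments to several places were 24.4% to 30.7% of entries. Summary rows stayed out of totals and tests.

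From these counts, CPM was computed on transcript totals, and members were chosen with a pseudocount of 1. The members and lists were chosen with earlier results of these data known. Tests used edgeR 4.0.16 in R 4.3.3 (filterByExpr, TMM, robust quasi-likelihood F-tests, Benjamini-Hochberg over all transcripts tested, with calls at an adjusted p below 0.05). The 16 libraries of experiment 1 were fitted with 8 group means (12845 transcripts, biological coefficient of variation 0.128) and the 11 of experiment 2 with 4 (13061 transcripts, 0.0303). Standard errors were derived from the F statistic. The scripts were tested on simulated data. Contrasts with wild type, or with a group that the choice compared with it, were not tested. The confluent single knockdown libraries entered the choice through their difference from each other and were tested against sub-confluent ones.

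The reference table of 43286 dog genes matched 0 identifiers, so gene lists and markers were not run. The rule for identifiers took the 2 transcripts with the largest smallest change over the limits against wild type and the 2 lowest in YAP5SA against S94A among those called, with a mean of at least 5 CPM, and 1 met both. Alternatives were RLE scaling, no filter, DESeq2 1.42.0, fits of the compared groups alone, replicate blocks, other forms of the choice and leaving out each library.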

Additional observations from a re-analysis of the deposited data

How the results depend on the processing

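In the 6 tested comparisons, RLE scaling and DESeq2 kept each count of called transcripts within 1.5 times. Without the filter on low counts, the p190A against p190B comparison at sub-confluence gave 34 calls (24 higher, 10 lower) in place of 19. Fitted on the compared groups alone, calls were 15 for contact in p190A cells, 0 for both shRNAs against p190A and 6 for p190A against p190B. Over all transcripts the first 2 of these fits called 149 of 12052 and 217 of 12096. The main fits called 1387 and 2621 of 12845. Leaving out 1 library gave 1 to 45 calls for contact in p190A cells, 5 to 39 for contact in p190B cells, 9 to 27 for both shRNAs against p190A and 9 to 26 for p190A against p190B. It gave 22 to 36 for both shRNAs against p190B. Where a group was left with 1 library, that library was assumed to vary like the other groups, and the number of calls over all transcripts moved as well.

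A replicate block over experiment 1, and one within each density, gave 38 and 30 calls for contact in p190A cells and 38 and 24 in p190B cells. With the block within each density, contact was compared at the level of replicate 1 and not of the group means. Its median log2 fold change in p190A cells was -0.94, where the main fit gave -1.19. Its contact calls are therefore not the main result with a block added. Against p190A the replicate block gave 20 and 23, against p190B 32 and 36, and between the single knockdowns 22 and 25, and every one of these counts stayed within 1.5 times. The labels give no shared day or culture to the numbers. Deviations of same-numbered libraries correlated at 0.189 to 0.619 within a density and at -0.248 to 0.0841 across densities, with 2 pairs for any 2 groups. For contact at the level of replicate 1, the block within density gave no call for some falls called in the main fit. These were ENSCAFT00000013454 (edgeR adjusted p = 0.11) and ENSCAFT00000002889 (0.10) in p190A cells, and ENSCAFT00000009543 (0.10) in p190B cells. The block within density also lost the rise of ENSCAFT00000013454 with both shRNAs over p190B (0.068), a comparison within 1 density. Both blocks lost the rise of ENSCAFT00000009543 over p190A (adjusted p = 0.051 and 0.10). In experiment 2 all YAP5SA titles carry the same replicate letter, so no block was fitted there. Of 366 alternatives for the 6 transcripts described singly, 308 kept their side of the threshold, 48 lost and 10 gained a call. The sign turned in 8, all of them estimates that were not called under either setting. Leaving out sub-confluent p190A libraries for the described medians, and the alternatives for the 3 most abundant transcripts, were chosen after seeing the data.

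Changes of 1.5 in place of 1 left 7 transcripts. TMM-scaled CPM gave 68, including all 48, a pseudocount of 0.5 gave 53 (44 shared) and leaving out a library 40 to 59. Depth allowed tests of all 48, and 2 libraries a group limit the precision.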
